A study of Mus musculus with 2 samples.

Results

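Gata2, Gata3, Tfap2a, Tfap2c, Elf5, Esx1, Plac1, Ascl2 and Tead4 are genes of the trophoblast, the lineage that forms the outer layer of the blastocyst and later most of the placenta. These 9 genes were taken by symbol from the 32285 genes of the deposited gene table. Their counts were followed in both libraries, together with the question of whether cells held several of them or 1 alone. R1 mouse embryonic stem cells, 1 line that no label describes as modified, were grown for 72 hours in N2B27 medium. The LB culture was kept on gelatin with BMP4 and the self-renewal cytokine LIF. The LBPXRS culture received LIF and BMP4 with PD0325901 (a MEK inhibitor), Xav939 (a tankyrase inhibitor that lowers WNT signalling), SB431542 (an inhibitor of the NODAL and activin receptors) and a compound named only as Resorcyclic lactone, with no target stated, and was grown on fibronectin. Each condition had 1 library, the effects of medium and of substrate cannot be told apart, and no difference has a replicate check.

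In the mouse embryo Tead4, with its co-activator YAP, starts the trophectoderm programme, and Cdx2, Gata3 and Tfap2c act within it. Gata2 and Gata3 are zinc finger factors that act in trophoblast stem cells and giant cells, Elf5 and Esrrb sustain the stem cell state, and Ascl2, Esx1 and Plac1 serve the placenta itself. Several of these genes also work elsewhere: Tfap2c in primordial germ cells and naive pluripotent cells, Tfap2a in surface ectoderm and neural crest, Gata2 in blood and Ascl2 in intestinal stem cells. BMP4 is a known inducer of trophoblast and mesoderm genes in cultured stem cells.

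The counts are UMIs (unique molecular identifiers, 1 per captured RNA molecule). After filtering, LB held 1783 of 2008 barcodes with 45490517 UMIs and a median of 25418 per cell, and LBPXRS held 2705 of 3111 with 51832444 UMIs and a median of 19058. The libraries also differ over whole chromosomes. Genes on the Y chromosome had 2872 UMIs in LB and 1 in LBPXRS. Genes on chromosomes 8 and 11 had median log2 ratios of -0.60 and -0.65, beside -0.16 over all genes counted this way. On chromosome X, which carries Esx1 and Plac1, the median was -0.096. None of the 9 genes lies on chromosomes 8, 11 or Y. Leaving these 3 chromosomes out of the totals gave log2 ratios of 3.38 for Gata2 and -2.24 for Plac1, against 3.37 and -2.02 with them; other effects of this difference on the 9 genes were not tested. The libraries shared 10 cell barcodes, 8 of them among kept cells. Kept barcodes with less than 0.5% mitochondrial UMIs, which may not be intact cells, numbered 32 in LB and 168 in LBPXRS.

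Levels are CPM, UMIs per 1000000 UMIs of all kept cells of a library, with exact 95% Poisson intervals. Shares are of cells thinned at random to 10000 UMIs each, so that both libraries have equal depth, with exact 95% binomial (Clopper-Pearson) intervals; 1666 LB and 2509 LBPXRS cells reached that depth, and 117 and 196 did not. All intervals cover counting error only. A gene was counted as 4-fold different where the log2 ratio of CPM + 1 between libraries reached 2 in size, among the 12618 genes whose mean CPM reached 1.

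Gata2 and Plac1 differed most between the libraries, in opposite directions. Gata2 was 15.8-fold higher in LBPXRS by CPM, and it was the 1 member of 9 that was at least 4-fold higher, where 1.69% of all tested genes were. Plac1, 23.9-fold lower in LBPXRS by CPM, was the 1 member that was at least 4-fold lower, where 2.83% of all tested genes were. That call was lost with TMM scaling (log2 ratio -1.95), and a pseudocount of 0.1 CPM gave 2 members, Tfap2a and Plac1. Of the 9 genes, 8 passed the filter on low values and Elf5 did not. The median log2 ratio of those 8 was 0.82, beside -0.14 over all tested genes.

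The AP-2 and GATA families are both represented among the members, so the start regions of the GATA genes were searched for the AP-2 motif. Gata3 and the downstream start of Gata2 are shown because they hold the AP-2 matches found among the members. Each window runs from 250 bases before to 50 bases after the start, is taken from RefSeq on GRCm38.p6 (the assembly behind mm10), and is written 5′ to 3′ on the gene's strand with AP-2 matches in capitals. The Gata3 window lies at chr2:9878551-9878850 on the minus strand and the Gata2 window at chr6:88198414-88198713 on the plus strand.
Gata3: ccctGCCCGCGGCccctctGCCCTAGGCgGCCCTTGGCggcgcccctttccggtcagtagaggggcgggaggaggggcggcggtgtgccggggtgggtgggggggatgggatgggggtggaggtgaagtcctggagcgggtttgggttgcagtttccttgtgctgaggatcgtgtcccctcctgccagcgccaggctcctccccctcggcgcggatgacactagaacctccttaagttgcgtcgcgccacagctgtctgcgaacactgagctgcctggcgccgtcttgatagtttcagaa
Gata2: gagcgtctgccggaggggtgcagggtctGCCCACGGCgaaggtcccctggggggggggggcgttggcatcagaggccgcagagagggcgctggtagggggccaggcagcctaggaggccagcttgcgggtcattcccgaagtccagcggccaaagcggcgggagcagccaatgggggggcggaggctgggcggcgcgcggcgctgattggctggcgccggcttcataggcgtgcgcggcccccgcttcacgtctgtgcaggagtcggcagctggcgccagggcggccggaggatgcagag
The motif searched was GCCNNNGGC on both strands. It occurred 3 times in the Gata3 window and 1 time in this Gata2 window, and not in the window of the upstream Gata2 start. Windows were found for 7 of the 9 members, 11 in all. The AP-2 motif was in 2 of them and in 16.6% of all 32851 windows of this length. The GATA motif AGATAA was in 1 of the 11 (Plac1), against 11.2% of all windows, the TEAD motif GGAATG in 2 (Elf5 and the downstream Gata2 start), against 14.7%, and the SMAD motif GGCGCC in 3, against 11.9%. No matches of different motifs overlapped. A match is a description of the letters in these windows.

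Gata2 (ENSMUSG00000015053, chr6:88193891-88207032, mm10) had 77 UMIs in LB, or 1.69 CPM (1.34 to 2.12), and 1388 UMIs in LBPXRS, or 26.8 CPM (25.4 to 28.2). The ratio was 15.8 (12.6 to 20.2), a log2 ratio of 3.37. At equal depth a Gata2 UMI was held by 0.900% of cells in LB (0.505 to 1.48) and by 13.6% in LBPXRS (12.3 to 15.04), and at full depth by 3.08% and 17.5%. The intervals of the libraries lie far apart in CPM and in the share at equal depth.

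Gata3 (ENSMUSG00000015619, chr2:9857078-9890034), the paralog of Gata2 in the trophectoderm, differed much less. It had 238 UMIs in LB, or 5.23 CPM (4.59 to 5.94), and 400 in LBPXRS, or 7.72 CPM (6.98 to 8.51), a ratio of 1.48 (1.25 to 1.74). Its share of cells was 4.02% in LB (3.13 to 5.08) and 7.85% in LBPXRS (6.83 to 8.97), or 8.69% and 11.98% at full depth.

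The AP-2 factors went in opposite directions. Tfap2c (ENSMUSG00000028640, chr2:172549593-172558622), which encodes AP-2 gamma, had 976 UMIs in LB, or 21.5 CPM (20.1 to 22.8), and 2545 in LBPXRS, or 49.1 CPM (47.2 to 51.0), a ratio of 2.29 (2.12 to 2.47). It was found in 16.6% of cells in LB (14.9 to 18.5) and in 37.4% in LBPXRS (35.5 to 39.4); at full depth these shares were 30.3% and 55.7%. Tfap2a (ENSMUSG00000021359, chr13:40715302-40738376), which encodes AP-2 alpha, had 177 UMIs in LB, or 3.89 CPM (3.34 to 4.51), and 41 in LBPXRS, or 0.791 CPM (0.568 to 1.07). Tfap2a was thus 4.92-fold higher in LB (3.49 to 7.09), and the share of positive cells was 2.76% there (2.03 to 3.67) and 0.957% in LBPXRS (0.614 to 1.42), or 5.33% and 1.48% at full depth. An antisense gene that overlaps Tfap2a, Gm47061, had 15 UMIs in LB and 28 in LBPXRS; whether the counting used strand is not given in the sources used here.

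Of the other transcription factors, Esx1 and Ascl2 were higher in LBPXRS and Tead4 was nearly level. Esx1 (ENSMUSG00000023443, chrX:137115397-137122083), an X-linked homeobox factor of the placental labyrinth, had 134 UMIs in LB, or 2.95 CPM (2.47 to 3.49), and 457 in LBPXRS, or 8.82 CPM (8.03 to 9.66), a ratio of 2.99 (2.46 to 3.66). Ascl2 (ENSMUSG00000009248, chr7:142966829-142969264), a basic helix-loop-helix factor needed for the spongiotrophoblast, had 152 UMIs in LB, or 3.34 CPM (2.83 to 3.92), and 646 in LBPXRS, or 12.5 CPM (11.5 to 13.5), a ratio of 3.73 (3.12 to 4.48). Tead4 (ENSMUSG00000030353, chr6:128224288-128300823) had 229 UMIs in LB, or 5.03 CPM (4.403 to 5.73), and 309 in LBPXRS, or 5.96 CPM (5.32 to 6.67). The interval of its ratio, 1.18 (0.995 to 1.41), includes 1. At equal depth Esx1 was in 1.20% of LB and 7.45% of LBPXRS cells, Ascl2 in 2.46% and 11.6%, and Tead4 in 4.62% and 5.30%. Without thinning these shares were 1.68% and 13.1%, 7.29% and 19.6%, and 10.99% and 10.2%.

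Elf5 was at or near 0 in both libraries, and Plac1 was near 0 in LBPXRS. Elf5 (ENSMUSG00000027186, chr2:103411688-103450989), the ETS factor that marks trophoblast stem cells, had 0 UMIs in LB, where the exact interval allows up to 0.0811 CPM, and 5 UMIs in 5 cells of LBPXRS, or 0.0965 CPM (0.0313 to 0.225). Among thinned LB cells, 0 of 1666 held Elf5; the exact interval allows up to 0.221%, and a floor of 3 cells is 0.180%. Plac1 (ENSMUSG00000061082, chrX:53069995-53240111), which encodes an extracellular protein of placental cells, had 168 UMIs in LB, or 3.69 CPM (3.16 to 4.30), and 8 UMIs in LBPXRS, or 0.154 CPM (0.0666 to 0.304). It was 23.9-fold higher in LB (11.9 to 56.3), and was in 2.64% of cells there and in 0.159% in LBPXRS, or in 5.27% and 0.222% at full depth. Its log2 ratio of -2.02 lies close to the threshold, because a pseudocount of 1 CPM holds back the ratio of a gene this low.

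**Figure D1:**
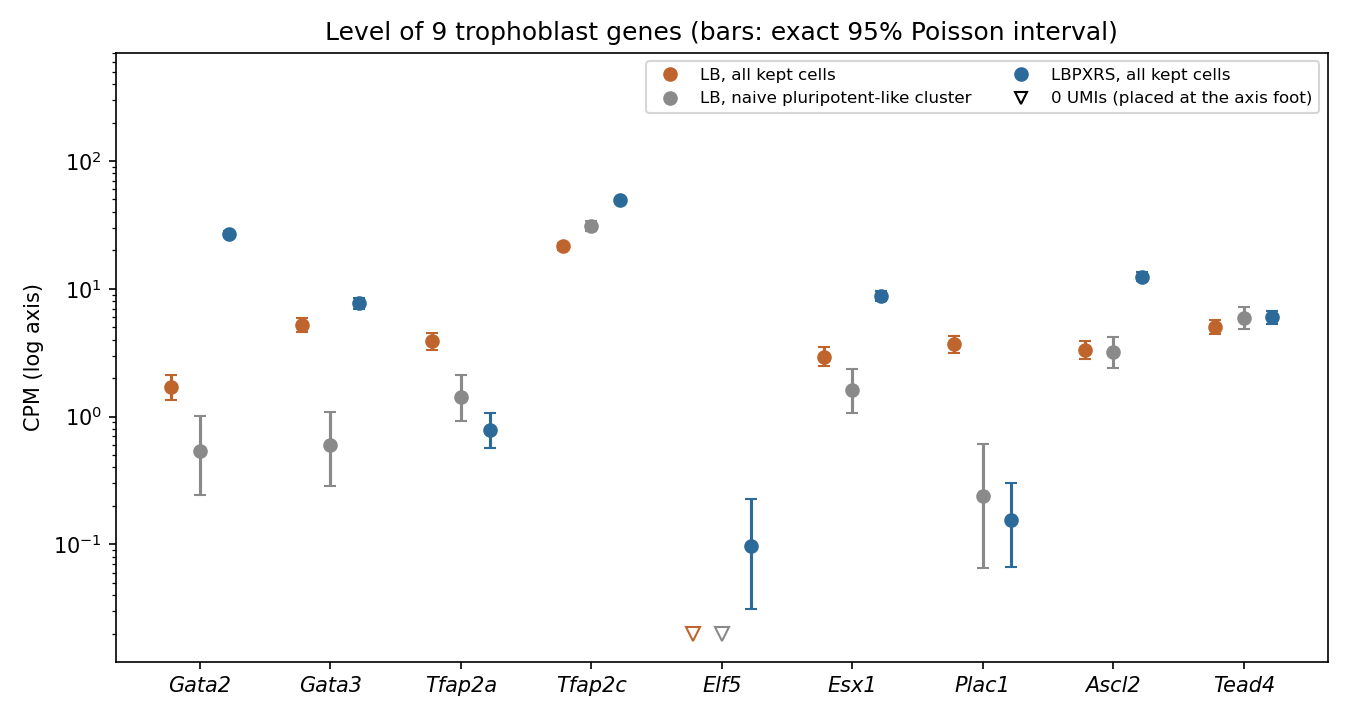
CPM of each gene on a log axis in all kept LB cells, in the naive pluripotent-like LB cluster and in all kept LBPXRS cells, with exact 95% Poisson intervals; open triangles mark 0 UMIs. Gata2 stands at 1.69 CPM in LB, 0.535 in the naive pluripotent-like LB cells and 26.8 in LBPXRS, while Tead4 lies between 5.03 and 5.96 in all 3.

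To see in which cells the genes lay, each library was clustered without these 9 genes, and clusters were named from markers that did not include them. LB held 8 clusters: naive pluripotent-like cells (593), primitive streak or nascent mesoderm-like cells (286), extraembryonic or lateral mesoderm-like cells (327), formative or primed pluripotent-like cells (285), 2 trophoblast-like clusters (48 and 19) and 2 without a name (62 and 163). The larger trophoblast-like cluster had 7 of 15 trophoblast markers raised, with Krt8 at 1742 CPM and Cdx2 at 46.3 CPM, though Cdx2 was at 161.6 CPM in the extraembryonic or lateral mesoderm-like cells; its genes of highest fold included Cxcl10, Ccl2, Acta1 and Ankrd1, which are inflammatory and contractile genes. The smaller one was led by Rhox6, Rhox9 and Cdx2, but all 19 of its barcodes had under 0.5% mitochondrial UMIs and their median depth was 5873 UMIs. None of the 7 LBPXRS clusters met all conditions for a name. The largest, cluster 3 with 739 cells, scored best as trophoblast, with 3 of 15 markers raised and Krt8 and Krt18 first among its leading genes (29.4 and 36.2 CPM). Its median log2 ratio over those markers was 0.67, and a name needed 1. Cluster 3 had Gata2 at 5.43 CPM, Gata3 at 9.15 CPM and Tfap2c at 54.2 CPM. LBPXRS as a whole had 1 UMI of Cdx2 and 0 of Hand1, against 2057 and 3824 in LB.

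In LB the members split over different cell classes. Tfap2a had 89 of its 177 UMIs (50.3%) in the 48 cells of the larger trophoblast-like cluster, where it reached 53.5 CPM (43.0 to 65.9), against 1.43 CPM (0.914 to 2.12) in naive pluripotent-like cells. Esx1 had 93 of its 134 UMIs (69.4%) in the same cluster, but in 6 cells, and 4 LB cells with at least 10 Esx1 UMIs held 61.9% of all of them. Gata2 had 24 of its 77 UMIs there (14.4 CPM, 9.25 to 21.5). Another 7 were in the smaller trophoblast-like cluster, all in 1 barcode.

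Gata3 and Plac1 lay mostly in the mesoderm-like cells of LB. The 327 extraembryonic or lateral mesoderm-like cells held 124 of 238 Gata3 UMIs (52.1%) and 117 of 168 Plac1 UMIs (69.6%), at 15.7 CPM (13.1 to 18.8) and 14.9 CPM (12.3 to 17.8). Gata3 was also at 25.3 CPM (18.2 to 34.1) in the larger trophoblast-like cluster, and Plac1 at 8.42 CPM (4.602 to 14.1). In thinned mesoderm-like cells 12.4% held Gata3 and 9.80% held Plac1. In naive pluripotent-like cells, taken here to lack both, 0.345% and 0.173% did. Median depths before thinning were 23796 UMIs in the mesoderm-like and 28094 in the naive pluripotent-like cells. These low shares may be background, which was not tested.

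Tfap2c had the opposite distribution. It was at 31.2 CPM (28.6 to 34.0) in naive pluripotent-like cells, which held 524 of its 976 UMIs, at 28.3 CPM (24.4 to 32.7) in primitive streak-like cells and at 37.8 CPM (32.0 to 44.4) in the unnamed cluster of 163 cells. It was lower in the extraembryonic or lateral mesoderm-like cells, at 4.19 CPM (2.88 to 5.88), in formative-like cells, at 5.63 CPM (4.09 to 7.55), and in the larger trophoblast-like cluster, at 11.4 CPM (6.88 to 17.8). Ascl2 and Tead4 were spread over the LB clusters, with Ascl2 between 1.90 and 5.33 CPM and Tead4 between 0.928 and 10.9 CPM outside the smaller trophoblast-like cluster, where each had 1 UMI. For Tfap2c, Ascl2, Tead4 and Esx1 no cluster is known to lack the gene, and their background from free RNA has no measure here.

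**Figure D2:**
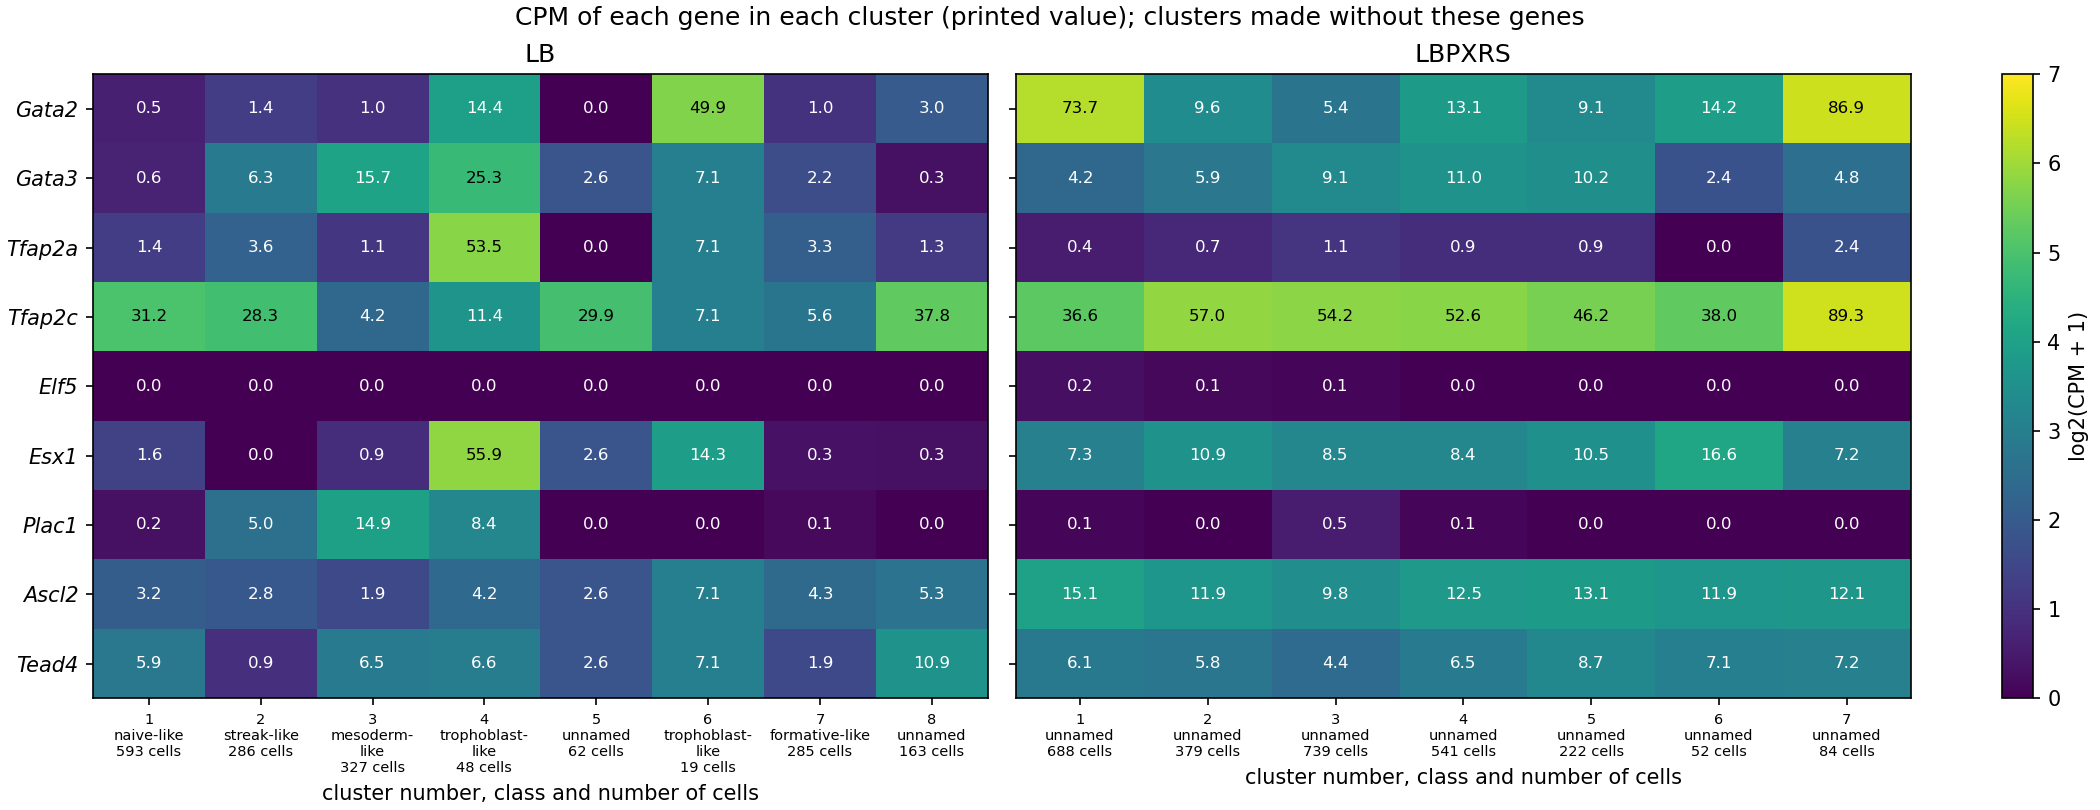
CPM of each gene (printed value, colour on a log2(CPM + 1) scale) in each cluster of LB and LBPXRS; columns give the cluster number, its class and its number of cells. Tfap2a and Esx1 are high in LB cluster 4, Gata3 and Plac1 in LB clusters 3 and 4, and Gata2 in LBPXRS clusters 1 and 7, while Tfap2c is above 36 CPM in every LBPXRS cluster.

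In LBPXRS, Gata2 was concentrated in fewer cells than Tfap2c. A cluster of 688 cells led by Dusp4, Aqp3 and S100a13 (cluster 1) held 1003 of the 1388 Gata2 UMIs (72.3%), at 73.7 CPM (69.2 to 78.4), and 33.2% of its thinned cells (29.6 to 36.9) were positive. In clusters 2 to 6 Gata2 lay between 5.43 and 14.2 CPM, and the lowest share with over 100 thinned cells was 5.06% (3.57 to 6.94), in cluster 3. No cluster of LBPXRS is known to lack Gata2, and the part of free RNA in the lower shares was not tested. Over the whole library 86 cells (3.18%) held 50% of the Gata2 UMIs, the highest cell had 27, and the variance of thinned counts was 3.55 times their mean. For Tfap2c 436 cells (16.1%) were needed to reach 50%, the highest cell had 9, and the cluster levels ran from 36.6 to 57.0 CPM in clusters 1 to 6.

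Barcodes with little mitochondrial RNA were richer in Gata2. The 168 such LBPXRS barcodes held 214 Gata2 UMIs, or 99.5 CPM (86.6 to 114), against 23.6 CPM in the other kept cells, and 95 of the 168 lay in cluster 1. Cluster 7, with 64 of its 84 barcodes of this kind and a median depth of 3610 UMIs, had Gata2 at 86.9 CPM (60.9 to 120). Ascl2 was also higher in these barcodes, at 22.8 CPM (16.9 to 30.1) against 12.02. Tfap2c was not, at 47.4 CPM (38.7 to 57.6) against 49.2. Without such barcodes Gata2 was at 23.6 CPM in LBPXRS and 1.55 CPM in LB.

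LB also held differentiating cells, so LBPXRS was also set beside the 593 naive pluripotent-like LB cells, a comparison added after the data were seen. In it 2 members were at least 4-fold higher in LBPXRS, where 2.04% of 12204 tested genes were. Gata2 went from 9 UMIs, or 0.535 CPM (0.245 to 1.02), to 26.8 CPM, 50.03-fold (26.3 to 110), and Gata3 from 10 UMIs, or 0.595 CPM (0.285 to 1.09), to 7.72 CPM, 13.0-fold (6.98 to 27.3). The levels of both in these LB cells are low enough to be background, so these folds describe the counts and are not exact ratios of expression. None of the members was 4-fold lower, where 1.34% of tested genes were: Plac1 was at 0.238 CPM (0.0648 to 0.609) in these LB cells, near its level in LBPXRS. Esx1 was 5.49-fold higher (3.72 to 8.42), Ascl2 3.88-fold (2.94 to 5.22) and Tfap2c 1.58-fold (1.43 to 1.73). Tead4 was level, with a ratio of 1.00 (0.798 to 1.27), and Tfap2a was lower in LBPXRS, with a ratio of 0.554 (0.327 to 0.959).

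Co-expression was measured as the number of thinned cells that held UMIs of both genes of a pair. It was divided by the number expected if the shares of the library were multiplied (the product of shares). A ratio of 1 means that the genes were found together as often as their shares alone give. Pairs with a product of at least 5 cells are summarised; this minimum was lowered from 10 after the values were seen, which brought in Esx1 with Tead4 in LBPXRS. Of 36 pairs, 5 reached it in LB and 16 in LBPXRS. In LB all 5 intervals include 1. In LBPXRS 13 include 1, 2 lie below and 1 lies above, with no adjustment for the number of pairs.

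Both pairs below 1 in LBPXRS include Gata2. Gata2 and Gata3 were found together in 16 cells where the product gives 26.9, a ratio of 0.596 (0.341 to 0.968). Gata2 and Tfap2c were together in 98 cells where it gives 128, a ratio of 0.766 (0.622 to 0.933). When the product was summed within clusters, so that genes of different clusters are not expected together, the ratios were 0.755 (0.432 to 1.23) and 0.867 (0.704 to 1.06), and both intervals include 1. For a bar of 2 UMIs per gene, Gata2 and Tfap2c were together in 2 cells. The product of library shares gives 13.2, a ratio of 0.152 (0.0184 to 0.549). No ratio within clusters is given for this bar.

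Gata2 was found with Ascl2 in 51 cells where the product gives 39.8, a ratio of 1.28 (0.954 to 1.68), and with Tead4 in 26 where it gives 18.1, a ratio of 1.43 (0.937 to 2.10). Esx1 and Tead4 were together in 21 cells where it gives 9.91, a ratio of 2.12 (1.31 to 3.24), and within clusters 2.18 (1.35 to 3.33). Gata3 and Tfap2c, both needed in the trophectoderm, were together in 82 cells where it gives 73.7, a ratio of 1.11 (0.885 to 1.38). The remaining pairs of LBPXRS ran from 0.745 for Gata2 with Esx1 to 1.34 for Tfap2a with Tfap2c.

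**Figure D3:**
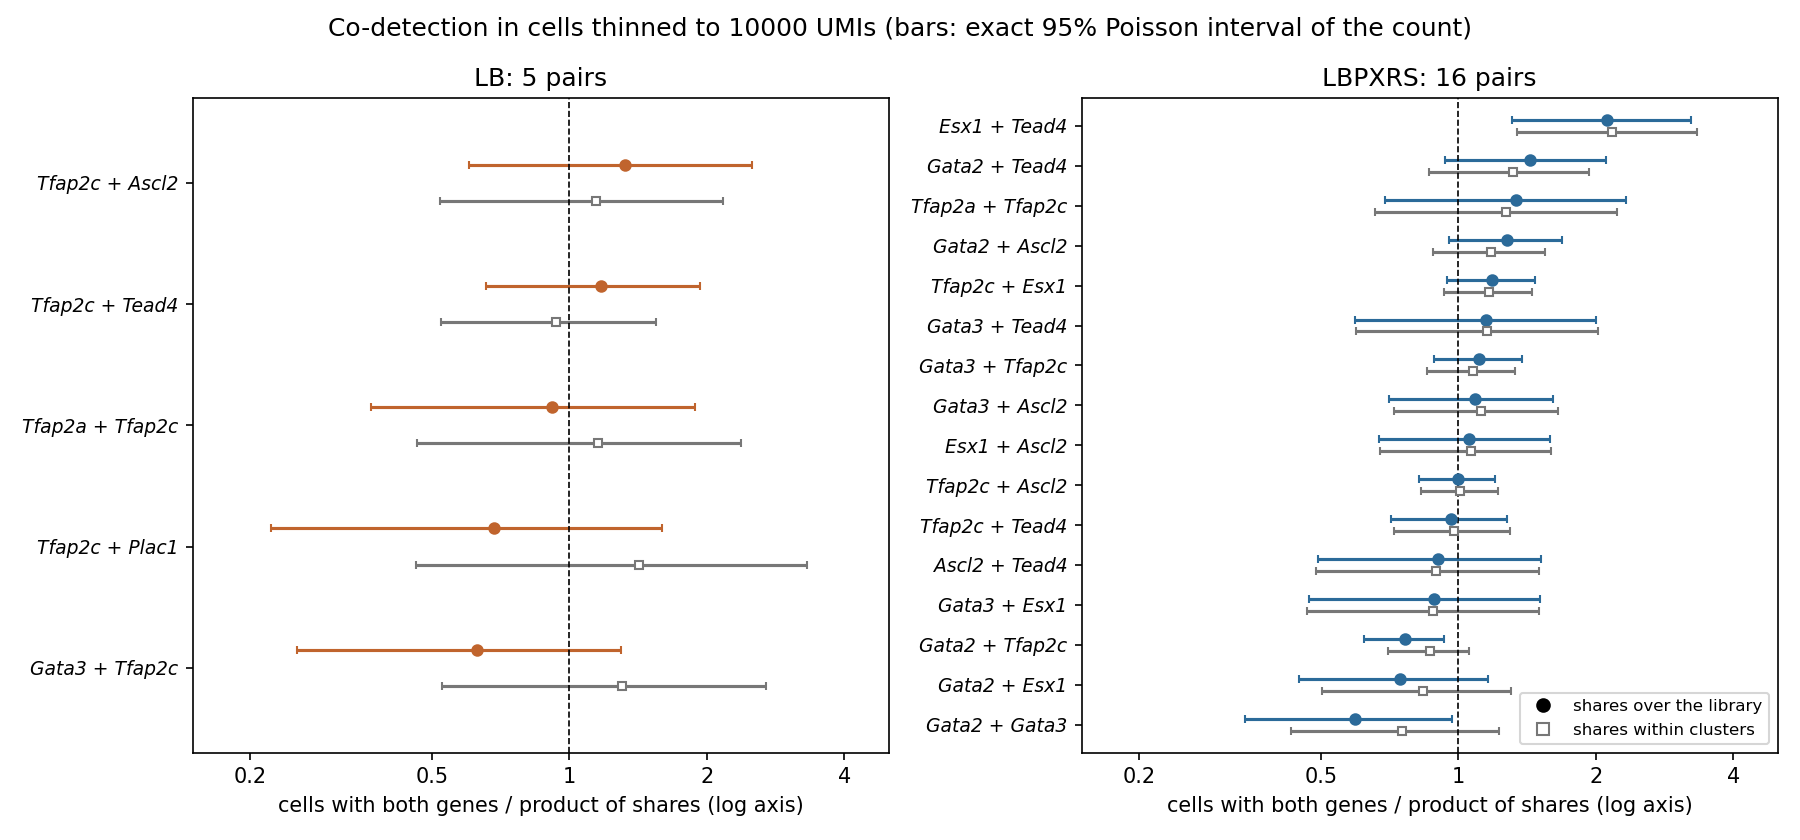
Ratio of the number of cells with both genes to the product of their shares, on a log axis, for the pairs with a product of at least 5 cells; filled circles use shares over the library, open squares shares within clusters, and bars are exact 95% Poisson intervals of the count. In LBPXRS Gata2 with Gata3 (0.596) and Gata2 with Tfap2c (0.766) lie below 1 and Esx1 with Tead4 (2.12) above it.

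The number of members per cell matched the product of shares closely. In LB 510 of 1666 thinned cells (30.6%) held at least 1 member, and 72 of these 510 (14.1%, 11.2 to 17.4) held at least 2, where the product gives 12.8%. In LBPXRS 1553 of 2509 (61.9%) held at least 1, and 473 of them (30.5%, 28.2 to 32.8) held at least 2, where the product gives 30.9%. At least 3 members were in 5 LB cells (4.402 from the product) and 87 LBPXRS cells (78.7). Without thinning the shares with at least 2 were 30.4% and 47.8%, and single cells reached 6 members in LB and 5 in LBPXRS.

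In LBPXRS 51.5% of the 342 Gata2-positive cells (46.0 to 56.9) held none of the other 8, above the 44.1% of the product. Products for genes found alone use shares over the library, not within clusters. Esx1-positive cells held no other member in 33.7% (27.0 to 41.0), below the product of 41.2%. Gata3 was alone in 42.1% (35.1 to 49.4; product 41.4%) and Tfap2c in 62.2% (59.0 to 65.3; product 60.9%). Ascl2 was alone in 41.1% (product 43.1%), Tfap2a in 37.5% of 24 cells (product 38.5%) and Tead4 in 33.8% (product 40.3%), and the intervals of these 3 include the product. In LB the interval of each of the 8 detected members includes its product, from 53.3% (26.6 to 78.7) for the 15 Gata2-positive cells to 82.3% (77.3 to 86.6) for the 277 Tfap2c-positive cells.

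**Figure D4:**
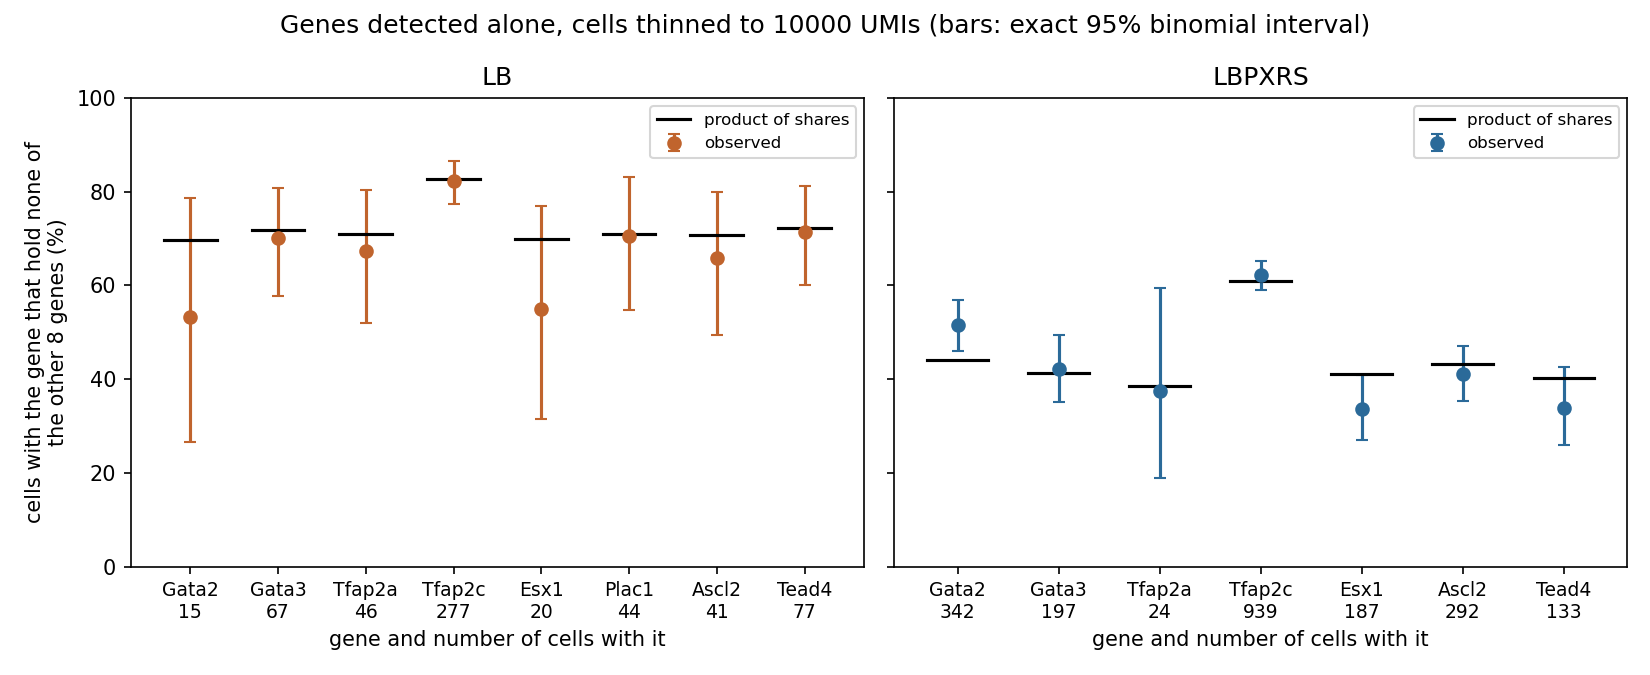
Percent of the cells with a gene that held none of the other 8 genes, observed (points with exact 95% binomial intervals) and from the product of shares (black bars), for genes in at least 10 thinned cells; the number of positive cells stands under each gene. Gata2 in LBPXRS lies above its bar, at 51.5% against 44.1%, and Esx1 below, at 33.7% against 41.2%.

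Cells with several members were more frequent in the larger trophoblast-like cluster of LB than in the pooled LB cells outside both trophoblast-like clusters. Of its 48 cells 29 (60.4%) held at least 2 members without thinning, against 14.98% of the LB cells outside the trophoblast-like clusters, at median depths of 33221 and 25404 UMIs. After thinning, 9 of 45 cells did (interval of the share 9.58 to 34.6%), against 63 of 1617, or 3.90% (3.01 to 4.96). Tfap2a was in 24 of the 48 cells, Gata3 in 21, Gata2 in 15, Tfap2c in 9, Tead4 in 7, Esx1 in 6, Plac1 in 5, Ascl2 in 4 and Elf5 in 0. Within the cluster, without thinning, 7 of 15 pairs among Gata2, Gata3, Tfap2a, Tfap2c, Esx1 and Plac1 lay above the product and 8 below, all on few cells. Gata3 and Tfap2a shared 10 cells (10.5 from the product), Gata2 and Gata3 10 (6.56), Gata2 and Tfap2a 7 (7.50), and Gata2 and Plac1 0 (1.56). Leaving both trophoblast-like clusters out, a setting chosen after the data were seen, gave 13.2% of member-positive LB cells with at least 2 members, close to the 14.1% with them.

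Over the whole LB library Gata3 and Plac1 were together in 7 thinned cells of the library where the product gives 1.77, a ratio of 3.96 (1.59 to 8.15), but 1.49 (0.599 to 3.07) within clusters, an interval that includes 1. Most UMIs of both genes lay in the mesoderm-like cells, and without thinning 2 cells of the larger trophoblast-like cluster held both. Plac1 and Esx1, the X-linked pair, shared 3 thinned LB cells where the product gives 0.528, a ratio of 5.68 (1.17 to 16.6) that rests on these 3 cells. Both pairs lie below the minimum product of 5 cells used above. They are the only LB pairs below it with an interval above 1, with no adjustment for the number of pairs.

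The Gata2-positive LBPXRS cells were described further by grouping thinned cells on 0, 1 and at least 2 Gata2 UMIs, a grouping chosen after the values were seen. Tfap2c was in 38.8% (36.7 to 40.9) of the 2167 cells without Gata2, 32.8% (26.4 to 39.8) of the 201 with 1 UMI and 22.7% (16.1 to 30.5) of the 141 with at least 2. Its level ran 52.4, 39.8 and 24.1 CPM. The order was the same inside cluster 1, at 41.9, 31.5 and 23.6 CPM, and without the barcodes low in mitochondrial UMIs, at 53.0, 41.1 and 23.3 CPM. Gata3 was in 8.35% (7.22 to 9.60), 4.98% (2.41 to 8.96) and 4.26% (1.58 to 9.03) of the cells, but in cluster 1 alone its shares were 4.56%, 3.70% and 5.45% with overlapping intervals. Ascl2 went the other way, at 11.1% (9.83 to 12.5), 13.4% (9.04 to 18.9) and 17.0% (11.2 to 24.3), with overlapping intervals. Without the barcodes low in mitochondrial UMIs the Ascl2 shares were 10.9%, 13.2% and 13.8%.

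Genes of the fixed lists were compared between cells with and without a member where they reached 1 CPM over all thinned cells of the library, a filter chosen after the values were seen. All 12 naive pluripotency markers reached it in LBPXRS. None was at least 2-fold higher in Gata2-positive cells than in Gata2-negative ones, where 0.969% of 12181 genes were, and 2 were at least 2-fold lower, Klf4 and Nanog, where 1.55% of genes were. With 0, 1 and at least 2 Gata2 UMIs, Nanog, a core factor of naive cells, was at 192 CPM (186 to 198), 115 CPM (101 to 131) and 55.3 CPM (43.7 to 69.0). Klf4 was at 231 CPM (224 to 237), 129 CPM (114 to 146) and 89.4 CPM (74.4 to 106). Esrrb, which also serves trophoblast stem cells, was at 61.4 CPM (58.1 to 64.8), 59.2 CPM (49.0 to 70.8) and 76.6 CPM (62.8 to 92.5), so that its intervals overlap between neighbours. Dusp4, a phosphatase that acts on ERK kinases, was at 6.05 CPM (5.05 to 7.17), 36.3 CPM (28.5 to 45.7) and 57.4 CPM (45.6 to 71.4).

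**Figure D5:**
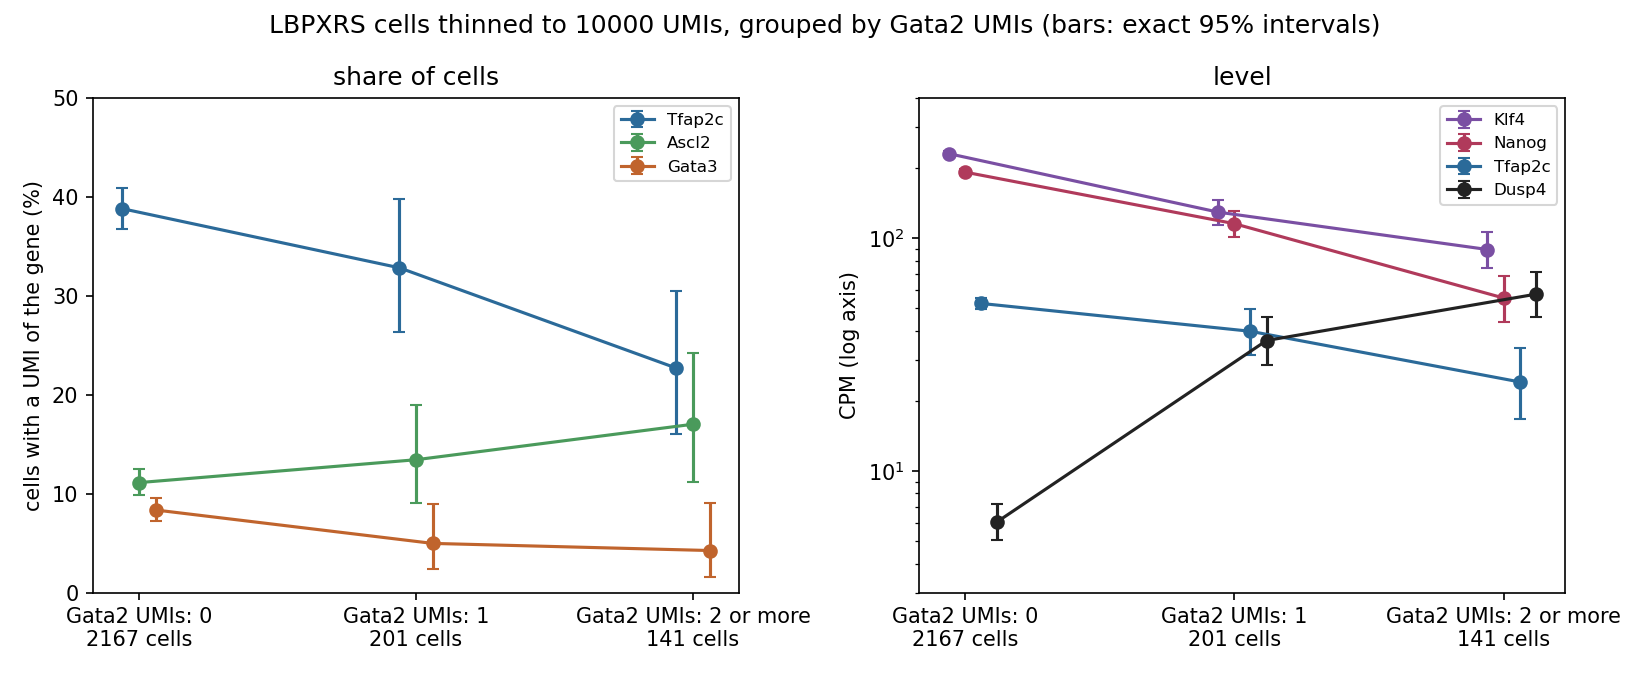
Thinned LBPXRS cells grouped by Gata2 UMIs (0, 1, at least 2; 2167, 201 and 141 cells), with exact 95% intervals: the left panel gives the percent of cells with Tfap2c, Ascl2 and Gata3, the right panel the CPM of Klf4, Nanog, Tfap2c and Dusp4 on a log axis. Tfap2c goes from 38.8% to 22.7%, and Nanog from 192 to 55.3 CPM, while Dusp4 goes from 6.05 to 57.4 CPM.

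Of the 10 trophectoderm epithelium genes 8 reached 1 CPM in LBPXRS. Krt8, Krt18, Krt19 and Cldn4, 4 of these, were at least 2-fold higher in Gata2-positive than in Gata2-negative cells, where 0.969% of genes were. None was 2-fold lower, where 1.55% were. Krt19 had 32 UMIs in all thinned LBPXRS cells and passed the filter of 1 CPM only through the Gata2-positive cells. With genes kept instead by presence in at least 10% of the Gata2-positive cells, 1 of 4 was 2-fold higher. Cldn4, a tight junction protein, was at 135 against 49.8 CPM. Cdx2, a stem cell factor, was in 0 of the 342 cells, but LBPXRS as a whole held only 1 UMI of it. Krt8, a simple epithelial keratin, was in 2.81% of cells without Gata2, 2.99% with 1 UMI and 7.09% (3.45 to 12.7) with at least 2. Its 71.6 CPM in the last group came mainly from 1 cell, which held 92 of the 101 Krt8 UMIs; in cluster 1 Krt8 was at 8.18 CPM (3.74 to 15.5) in that group and at 2.51 CPM (1.25 to 4.48) without Gata2. For Krt18 105 of 125 UMIs in that group lay outside cluster 1, in 4 cells.

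The genes most like each member were those with the highest log2 ratio of CPM + 1 between thinned cells with and without a UMI of it, among genes found in at least 10% of the positive cells. For Gata2 in LBPXRS (342 cells) these were Dusp4 (45.0 against 6.05 CPM), Hkdc1 (17.3 against 2.58), Bhlhe41 (23.1 against 3.92), S100a13 (246 against 57.8) and Ripply3 (14.6 against 3.14). For Gata3 in LB (67 cells) they included Msx2 (130 against 16.8 CPM), Hand1 (416 against 64.4 CPM), Stard8 and Frmd6. In LBPXRS (197 cells) they were Gpat3, Plekhg2, Id2 (73.1 against 32.5 CPM), Id1 (39.1 against 17.5 CPM) and Ccn1. Of the 12 BMP pathway genes 11 reached 1 CPM in LBPXRS; 3 of them (Id1, Id2 and Msx2) were at least 2-fold higher in Gata3-positive cells and 0 lower, with a median log2 ratio of 0.16, where 0.542% of genes were higher and the median of all was 0.05.

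Tfap2c had among its closest genes in LB (277 cells) Nanos3 (16.2 against 4.46 CPM), Mt4, Prdm14 (11.6 against 3.60 CPM) and Dnd1 (47.7 against 19.9 CPM). Nanos3, Prdm14 and Dnd1 are germ cell genes, and Prdm14 also belongs to naive pluripotency. Nanos3 and Dnd1 belong to a fixed list of 8 germ cell genes, whose other genes are not described beside Tfap2c here. Of genes of at least 1 CPM over all thinned LB cells, 0.622% were at least 2-fold higher in these 277 cells. In LBPXRS (939 cells) its closest genes were weak, from Trmt11 (11.6 against 6.88 CPM) to Zfp977 (11.6 against 7.52 CPM). For Tfap2a in LB (46 cells) they included Vgll3, Gipc2, Cryab (71.7 against 9.69 CPM) and Samd14. For Plac1 in LB (44 cells) they were Pitx1, Dlk1 (105 against 10.9 CPM), H19 (973 against 127 CPM), Twist2 and Hoxb8, and for Esx1 in LB (20 cells) Ccl2, Tgfbi, Csf1, Thbs1 and Acta1. Esx1 in LBPXRS (187 cells) had Sema5a, its fellow member Tead4 (11.8 against 5.04 CPM), Dazl (52.9 against 25.5 CPM), Camk2n2 and Meioc. This ranking is loose where few cells are positive: 12.6% of genes were 2-fold higher in the 20 Esx1-positive LB cells and 6.99% in the 24 Tfap2a-positive LBPXRS cells, against 0.192% in the 197 Gata3-positive and 0.0609% in the 187 Esx1-positive LBPXRS cells.

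Mesoderm and epithelium genes were counted in the same way in LB. Of the 12 extraembryonic or lateral mesoderm genes 11 reached 1 CPM, all but Tbx4. In Gata3-positive cells 9 of the 11 were at least 2-fold higher and 0 lower (median log2 ratio 2.04). Of 12546 genes 6.12% were higher and 13.4% lower in these cells. In Plac1-positive cells 9 were higher and 1 lower (median 2.08), where 8.66% of genes were higher and 18.9% lower. The lower one was Kdr, a receptor of blood vessel precursors, with 0 UMIs in the 44 cells against 3.27 CPM. The interval of its ratio reaches up to 2.66 and includes 1. In Tfap2a-positive cells 1 was higher (Msx1) and 3 were lower (Foxf1, Kdr and Hand2, each with 0 UMIs in the 46 cells). Over all genes 5.09% were higher and 14.6% lower. The ratio intervals of Foxf1, Kdr and Hand2 reach up to 1.06, 2.54 and 2.54, so all 3 include 1.

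All 10 trophectoderm epithelium genes reached 1 CPM in LB. In Gata3-positive cells 4 were at least 2-fold higher and 0 lower (median log2 ratio 0.24). Over all genes 6.12% were higher and 13.4% lower in these cells. In Plac1-positive cells 6 were higher and 2 lower, Cdh1 and Cldn4 (median 1.09), where 8.66% of genes were higher and 18.9% lower. In Tfap2a-positive cells 5 were higher and 1 lower, Cdh3 (median 0.76), where 5.09% of genes were higher and 14.6% lower. Cdh3 had 2 UMIs in these cells, and the interval of its ratio (0.0532 to 1.63) includes 1. Krt8 was at 599 against 140 CPM beside Gata3, 707 against 143 CPM beside Plac1 and 554 against 147 CPM beside Tfap2a.

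Other genes of the trophoblast programme were counted between the libraries from lists by role. Over all tested genes 1.69% were at least 4-fold higher and 2.83% lower, with a median log2 ratio of -0.14. Of 9 further stem cell factors, all passed the filter, 1 was at least 4-fold higher in LBPXRS (Sox21, 14 and 698 UMIs) and 2 were lower (Cdx2 and Eomes, the latter with 579 and 69 UMIs), with a median log2 ratio of -0.61. Of 10 trophectoderm epithelium genes, 0 were 4-fold higher and 5 lower (Krt8, Krt18, Krt19, Cdh3 and Lgals3), with a median of -1.70. Of 16 genes of placental lineages 7 passed, 0 were higher and 2 lower (Hand1 and Peg10). Syna, Synb, Tpbpa, Prl3d1, Prl3b1, Prl2c2 and Rhox4b, which include the syncytin, spongiotrophoblast and giant cell markers, had 0 UMIs in both libraries.

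Paralogs of the members were counted in the same way. Of 4 further GATA genes, Gata4 (121 and 55 UMIs) and Gata6 (170 and 34 UMIs), factors of primitive endoderm and heart, passed the filter and neither was 4-fold different. Of 3 further AP-2 genes none passed. None of the 5 TEAD paralogs and co-activators (median log2 ratio -0.42) or the 4 ELF paralogs (median 0.07) was 4-fold different. Of 12 BMP pathway genes 4 were 4-fold lower in LBPXRS (Bmp4, Id1, Id3 and Msx2) and none was higher, where 2.83% and 1.69% of all tested genes were, with a median of -0.70. Bmp4 itself had 2090 UMIs in LB and 21 in LBPXRS.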

How the data were processed

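The data are 2 droplet single-cell libraries (10x Genomics 3′ version 2, per the labels' protocols). The deposited matrices hold UMI counts per gene and barcode, made by the authors with Cell Ranger 4.0.0 on mm10, per the submitters' processing notes; cell calling settings are not given in the sources used here. Barcodes with under 1000 genes or over 10% mitochondrial UMIs were left out (225 in LB, 406 in LBPXRS). Scrublet in scanpy 1.11.5 marked 12 and 14 kept cells (0.673% and 0.518%) as doublets; they were kept. Each library was clustered without the 9 genes (2000 variable genes, 30 components, 15 neighbours, Leiden resolution 0.5). A class name needed 3 raised markers (log2 ratio of at least 1, CPM of at least 5), more than any other class, with a median log2 ratio over the class's markers of at least 1. It also needed no other class to have more markers among the 10 leading genes, and clusters whose median depth was below the library median divided by 3 needed a marker among those. With 1 library per condition no p-value is given. TMM factors came from edgeR 4.0.16. Scripts were tested on simulated data. The 9 genes, lists and markers were chosen with earlier results of these data known. Named genes are the 9 members, list members and the 5 genes most like each member (a few are not reported here); Dusp4, Aqp3, Klf4, Nanog and the keratins beside Gata2 were chosen after their values were seen. Of 32285 gene identifiers, 32158 (99.6%) were found in the GENCODE annotation of GRCm38, which gave coordinates. Promoters were not found for Tfap2c and Tead4.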

Additional observations from a re-analysis of the deposited data

Results flagged for a closer look

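The barcodes left out by the filters on genes and mitochondrial share (225 in LB with 740013 UMIs, 406 in LBPXRS with 728325) also held more than 3 UMIs of several members, and no comparison above uses them. In LB they held 4 UMIs of Gata3, 21 of Tfap2c, 12 of Plac1 and 4 of Ascl2. In LBPXRS they held 34 of Gata2, 6 of Gata3, 47 of Tfap2c, 8 of Esx1, 6 of Ascl2 and 6 of Tead4. Plac1 was at 16.2 CPM (8.38 to 28.3) in the left-out LB barcodes, against 3.69 CPM in the kept ones. Gata2 was at 46.7 CPM (32.3 to 65.2) in the left-out LBPXRS barcodes, against 26.8 CPM in the kept ones.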

How the results depend on the processing

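Gata2 was the 1 member at least 4-fold higher under 7 other settings (no barcode filter, doublets left out, TMM scaling, pseudocount of 0.1 CPM, no barcodes low in mitochondrial UMIs, totals without chromosomes 8, 11 and Y, no filter on low values). Against naive pluripotent-like LB cells, an alternative chosen after seeing the data, there were 2. The count of members 4-fold lower was 0 with TMM scaling, 2 with the smaller pseudocount (Tfap2a and Plac1) and 0 against naive pluripotent-like cells; Plac1 lies at the threshold. TMM moved the median log2 ratio of all genes from -0.14 to -0.00071. The share of member-positive cells with at least 2 members depends on depth and bar: in LB it was 7.96% at 5000 UMIs, 30.4% without thinning, 1.83% for members at 2 UMIs and 9.57% without Tfap2c, and in LBPXRS 15.01%, 47.8%, 2.95% and 19.8% (leaving out Tfap2c was chosen after seeing the data). No value changed sign. Of the members' log2 ratios over these settings 52 stayed within their counting interval and 11 did not, and of the ratios of pairs 69 and 9. No paired analysis was possible because each condition has 1 library. With 1 library each, culture, line passage and library effects cannot be told from the media. With list genes kept by presence in at least 10% of the Gata2-positive LBPXRS cells, 1 of 4 trophectoderm epithelium genes was 2-fold higher in them, against 4 of 8 with the filter on the level over all thinned cells.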

Other observations

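A few other genes of the trophoblast and epithelial lists were higher in LBPXRS while most were lower. The placental homeobox genes Rhox6 and Rhox9 had 231 and 198 UMIs in LB and 590 and 622 in LBPXRS, with log2 ratios of 1.03 and 1.28. Grhl3, a factor of surface epithelia, had 350 and 1486 UMIs (1.77), and Cldn4, a tight junction protein, 1019 and 3200 (1.42).

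Cells with a Gata2 UMI in LBPXRS had Grhl2, an epithelial factor, at 14.9 CPM, against 4.38 CPM in cells without. Otx2, a formative factor, was at 15.2 against 43.8 CPM. They are single genes of lists of 9 surface ectoderm and 12 formative or primed markers. The other genes of these 2 lists are not described beside Gata2 here, so the lists as a whole are not judged. Over all genes 0.969% were at least 2-fold higher in the Gata2-positive cells and 1.55% lower.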
